A study of Sus scrofa with 21 samples.

Results

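Tetraspanins are small membrane proteins that cross the membrane several times and gather integrins, immunoglobulin-type partners and each other into patches of the cell surface. CD9 and CD81 on the egg, and to a lesser degree on sperm, are known from sperm-egg fusion, and CD9, CD63 and CD81 are the usual marker proteins of extracellular vesicles, the small particles by which testis and epididymis also pass proteins and RNA to sperm. The genes described here were 9 named tetraspanins of sperm and vesicles: CD9, CD81, CD63, CD82, CD151, TSPAN3, TSPAN6, TSPAN8 and TSPAN16. They were chosen by symbol, and 7 of the 9 were found among the 25880 genes counted. TSPAN8 (chromosome 5) and TSPAN16 (chromosome 2) could not be matched to a gene ID and are named only.

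The data were RNA sequencing counts from testis of 21 artificial insemination boars, 13 Landrace and 8 Duroc, taken at slaughter, with 1 library per boar. Boars had been chosen for high or low sperm hyperactive motility, the vigorous whip-like swimming of sperm about to fertilise. Contrast (i) compared 4 Landrace boars with high (L5 to L8) and 4 with low (L1 to L4) hyperactivity on the day of ejaculation (day 0). Contrast (iii) compared 3 Landrace boars with a high (L7, L13, L15) and 4 with a low (L2, L9, L10, L12) change in hyperactivity over 96 h of storage at 18 °C. Contrast (ii) compared 5 Duroc boars labelled high (D1 to D5) with 3 labelled low (D6, D7, D9). The labels give breed and hyperactivity group but no age or treatment. L2 and L7 were in both Landrace contrasts, which are therefore not independent. For 7 of the 8 Duroc boars the study's own list of boars gives the opposite group under the same boar name. The names may not mean the same boars, since the read depths differ by name. The deepest Duroc libraries here were D3 (125576407 counts) and D2 (84446404 counts), both labelled high. In the study's list the deepest Duroc boars are D9 and D8, also both high, while D2 and D3 are low. The deposited labels were used, and the sign, size, overlap and p of every Duroc difference below rest on them. D5 is high in both sources, so if the names did match, D5 would stand with D6, D7 and D9 against D1 to D4.

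The libraries held 41358671 to 125576407 counts assigned to genes (median 58530621), and no pair of boars in the same group was a duplicate. Levels are given as CPM, counts scaled to a fixed library total, after TMM scaling over all 21 boars. Since CPM is not divided by transcript length, levels are compared between boars and not between genes. Markers of the labelled tissue were present in every library, with summed CPM from 4847 to 11803 for elongating spermatids, from 610 to 4623 for Leydig cells and from 186 to 496 for Sertoli cells. Of the 4 duct epithelium markers in the files, KRT18 was at 0 in 15 boars, while KRT8 (0.531 to 6.07 CPM), EPCAM (2.39 to 81.2 CPM) and CDH1 (4.78 to 11.6 CPM) were at 0 in none, and their sum was 10.7 to 88.9 CPM.

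The 7 genes lay on 4 chromosomes of Sscrofa11.1 in the RefSeq annotation. On chromosome 2, CD151 (ENSSSCG00000012840, 525000 to 529568) was followed 2518 bases away by TSPAN4, CD81 (ENSSSCG00000039243, 1625728 to 1641662) stood 26316 bases from TSPAN32, and CD82 (ENSSSCG00000029521, 17751153 to 17803172) stood 79415 bases from TSPAN18. CD151 and CD81 were 1096159 bases apart. CD63 (ENSSSCG00000000361, 21172275 to 21176225) and CD9 (ENSSSCG00000022230, 64420177 to 64459783) were on chromosome 5. TSPAN3 (ENSSSCG00000001868, 57162080 to 57187515) was on chromosome 7 and TSPAN6 (ENSSSCG00000012481, 82323634 to 82328919) on chromosome X. The CD63 interval overlaps 2 uncharacterised loci, LOC106510300 and LOC102162669, so its reads could in part be shared with them where they lie on the same strand.

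All 7 genes had counts in every boar. TSPAN6, which is linked to endosomal sorting and vesicle cargo, was counted most, with 30555 to 111749 reads per boar and 790.6 ± 190.1 CPM (SD, n = 21). TSPAN3, a widely expressed tetraspanin, had 4740 to 17718 reads and 122.9 ± 28.7 CPM. CD63, the tetraspanin of late endosomes and lysosomes, had 1524 to 6421 reads and 46.9 ± 11.8 CPM. The other 4 genes had fewer reads. CD9 had 224 to 994 reads and 8.31 ± 2.65 CPM, CD81 had 94 to 498 reads and 4.14 ± 1.67 CPM, and CD82, which was named as a suppressor of metastasis, had 55 to 266 reads and 1.92 ± 0.773 CPM. CD151, the partner of laminin-binding integrins, had 11 to 185 reads and 1.24 ± 0.676 CPM.

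The genes differed in how far they varied between boars. CD151 ranged 18.1-fold from the lowest to the highest boar, CD81 5.93-fold, CD82 4.38-fold and CD9 3.58-fold, against 2.75-fold for TSPAN6, 2.71-fold for CD63 and 2.42-fold for TSPAN3. The CD151 minimum rests on 11 reads, so counting error widens that range. L8, a boar of high hyperactivity, was the lowest of the 21 boars for CD9, CD81, CD63, CD82 and CD151 and the highest for TSPAN6.

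**Figure D1:**
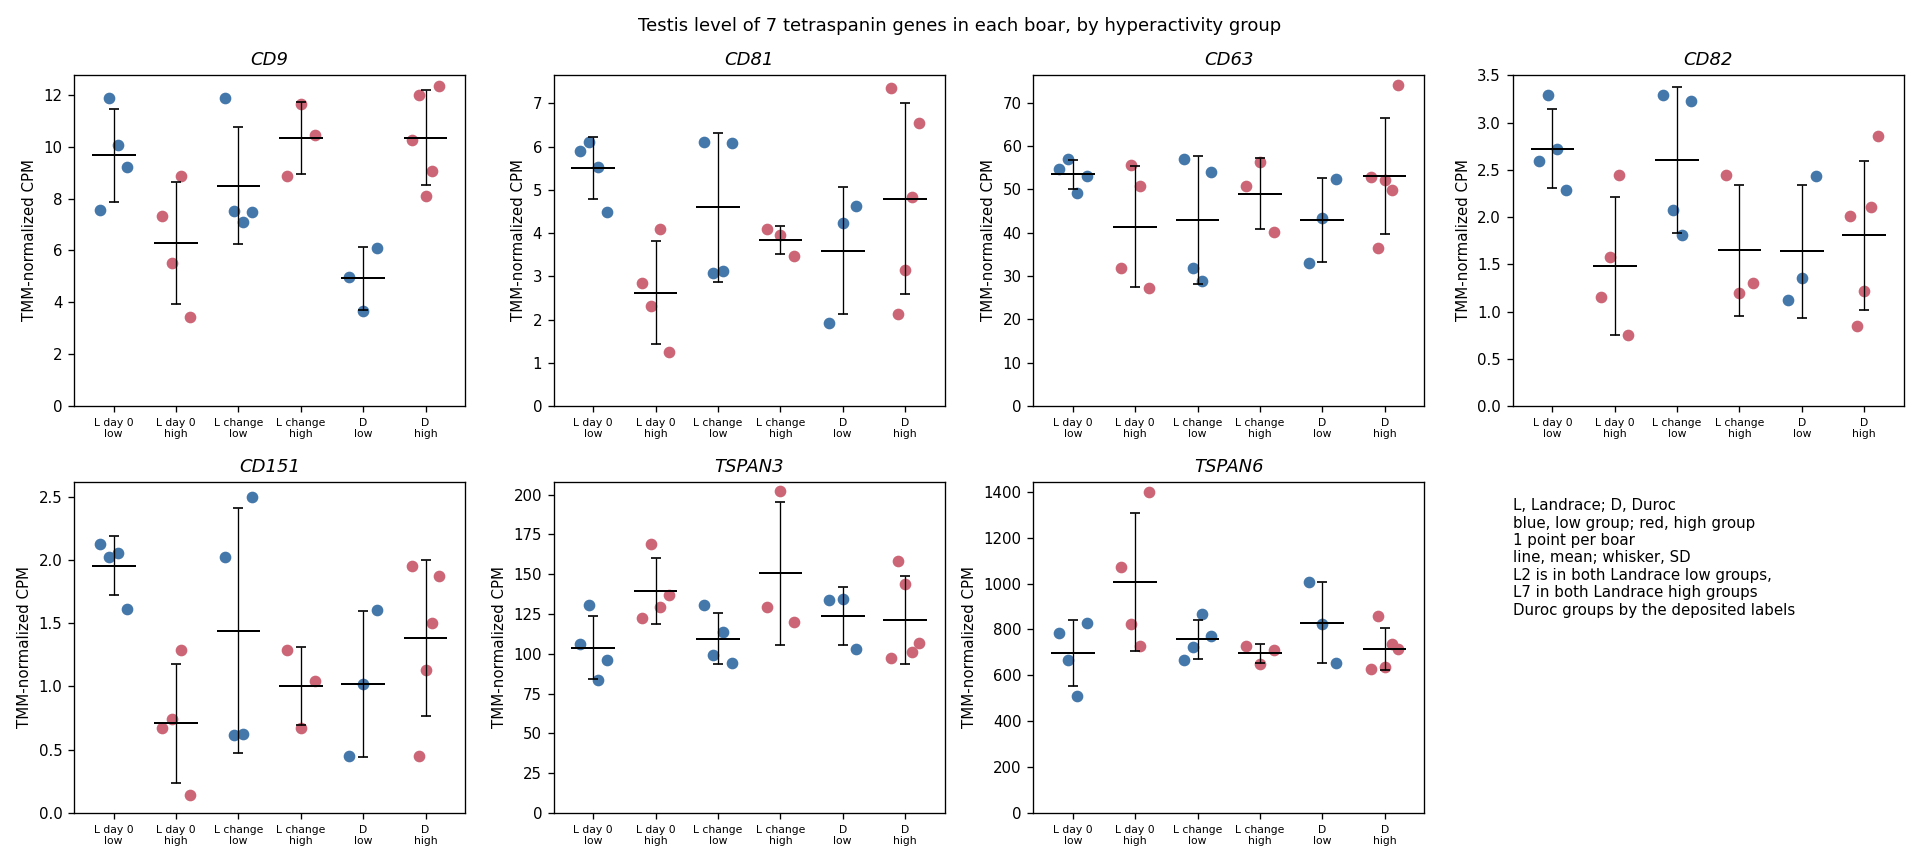
TMM-normalized CPM (vertical axis, linear from 0) of 7 tetraspanin genes in each boar, with boars grouped by hyperactivity along the horizontal axis. Points are boars, lines are group means and whiskers are SD. CD81 and CD151 of the day 0 low Landrace boars all lie above those of the high boars, and CD9 of the 5 Duroc boars labelled high lies above that of the 3 labelled low.

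Contrast (i) asked how testis gene expression differed between boars of high and low hyperactivity at day 0. CD81 and CD151 were lower in the high hyperactivity group and passed the test. CD151 met the CPM filter through the low group, and neither gene was called with all 16 day 0 boars in 1 fit. CD82, CD9 and CD63 also had lower means in the high group, and TSPAN3 and TSPAN6 had higher means, but none of these 5 genes passed. Thus 2 of the 7 genes tested were called at an adjusted p under 0.05 (edgeR's quasi-likelihood test, Benjamini-Hochberg over all 12979 genes tested), both lower. Over all genes tested the percentage called was 20.7, with 15.8% lower and 4.82% higher in the high group. The median log2 fold change was -0.69 over the 7 genes and 0.03 over all genes.

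For CD81, which also serves as a coreceptor on B lymphocytes, the low boars L1 to L4 had 5.89, 6.11, 5.54 and 4.49 CPM, and the high boars L5 to L8 had 2.85, 2.30, 4.10 and 1.24 CPM. Every low boar was above every high boar. The group means were 5.51 ± 0.717 CPM (SD, n = 4) and 2.62 ± 1.19 CPM (n = 4), a log2 fold change of -1.13 (SE 0.33) with an adjusted p of 0.0366 in edgeR. The two-sided exact permutation test gave p = 0.0286, the smallest that 70 assignments of the boars allow.

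CD151 had 2.13, 2.02, 2.06 and 1.61 CPM in the low boars L1 to L4 and 0.670, 0.740, 1.28 and 0.138 CPM in the high boars L5 to L8. Again the groups did not overlap, and the low boars lay close together while the high boars spread. The means were 1.95 ± 0.234 and 0.708 ± 0.469 CPM, and the log2 fold change was -1.52 (SE 0.49, adjusted p = 0.0488 in edgeR, exact permutation p = 0.0286). CD151 reached the minimum of 1 CPM, before TMM scaling, in all 4 low boars but in only 1 high boar. It therefore entered the test through the group in which it was high, and the filter favoured that direction. Without the CPM filter, or with library totals only, CD151 was not called. Groups did not overlap for 2 of the 7 genes, against 31.4% of all genes tested.

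CD82 had 2.60, 3.30, 2.73 and 2.29 CPM in L1 to L4 and 1.15, 1.58, 2.45 and 0.752 CPM in L5 to L8. Here L7 lay above L4 and the other high boars lay below all low boars. The log2 fold change was -0.94 (SE 0.36, adjusted p = 0.0737 in edgeR, exact permutation p = 0.0571).

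CD9 had 7.55, 11.9, 10.1 and 9.22 CPM in L1 to L4 and 7.32, 5.51, 8.88 and 3.45 CPM in L5 to L8. The groups overlapped through L1 and L7, and the log2 fold change was -0.69 (SE 0.29, adjusted p = 0.0947 in edgeR, exact permutation p = 0.0571). CD63 had 54.7, 57.1, 49.1 and 53.1 CPM in L1 to L4 and 31.9, 55.6, 50.7 and 27.3 CPM in L5 to L8. Its high boars fell into a pair near the low boars (L6 and L7) and a pair below them (L5 and L8), with a log2 fold change of -0.44 (SE 0.21, adjusted p = 0.140 in edgeR).

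TSPAN3 and TSPAN6 had differences of the other sign. TSPAN3 was at 106, 130, 83.5 and 95.8 CPM in L1 to L4 and at 123, 169, 129 and 137 CPM in L5 to L8, where L2 was the only low boar within the range of the high boars. Its log2 fold change was 0.35 (SE 0.15, adjusted p = 0.107 in edgeR, exact permutation p = 0.0857). TSPAN6 was at 785, 665, 509 and 830 CPM in L1 to L4 and at 1075, 825, 728 and 1400 CPM in L5 to L8. The ranges overlapped, and the log2 fold change was 0.46 (SE 0.21, adjusted p = 0.118 in edgeR, exact permutation p = 0.143). Without adjustment, 6 of the 7 genes had p under 0.05 (4 lower and 2 higher), against 41.7% of all genes tested.

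These calls rested on few boars. CD81 stayed under an adjusted p of 0.05 in 3 of the 8 edgeR fits that left out 1 boar (without L4, L5 or L7) and missed it without L1 (0.0745), L2 (0.0590), L3 (0.0765), L6 (0.0768) or L8 (0.0529), with log2 fold changes from -1.45 to -0.89. CD151 stayed under it in 2 of 8 (without L7 or L8), with log2 fold changes from -2.01 to -1.16 and adjusted p up to 0.108. Without L7, 4 of the 7 genes were called, CD9 (adjusted p = 0.0446 in edgeR) and CD82 (0.0210) being added. Without L8, the lowest boar, CD151 was at -1.16 (adjusted p = 0.0432 in edgeR) and CD81 at -0.89. In the same fit CD63 was at -0.26 and TSPAN6 at 0.28. The count over all genes moved as well, from 2682 genes called with all boars to 1 without L3, 1 without L6, 966 without L1, 1481 without L4, 1228 without L8 and 3764 without L5.

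Some markers of testis cell types were called between the same groups, where 15.8% of all genes tested were lower and 4.82% higher. The lists are short, and their counts were not tested against those shares. Of the peritubular cell markers, 2 of 3 tested were lower in the high group (DES and MYH11), and their summed level over 4 markers was 14.6 to 52.0 CPM in the high and 39.1 to 86.7 CPM in the low boars. Of the elongating spermatid markers, 2 of 5 were lower (PRM1 and TNP2), with sums of 8776 to 11803 CPM in the high and 7104 to 11021 CPM in the low boars. Not called were TNP1 (log2 fold change 0.21), ODF1 (0.07) and PRM2 (-0.21). Of the round spermatid markers, 1 of 4 was lower (ACTL7A, log2 fold change -0.68), with sums of 1329 to 1926 and 1204 to 1555 CPM. ACRV1 (0.46), SPACA1 (0.39) and TXNDC8 (0.17) lay on the other side of 0 and were not called. The median of that list was 0.28. The spermatocyte markers had sums of 758 to 1206 CPM in the high and 485 to 704 CPM in the low boars, with none of 4 called. The Leydig cell markers had 610 to 4623 and 1718 to 2175 CPM, with none of 6 called. The single red blood cell marker tested, HBB, was lower (log2 fold change -2.53, adjusted p = 0.0376 in edgeR). L8 had the highest spermatocyte, round spermatid (1926 CPM) and duct epithelium (88.9 CPM) sums and the lowest Leydig, peritubular, endothelial (7.47 CPM) and macrophage (2.38 CPM) sums of the 21 boars. No spermatogonia, Sertoli, endothelial, macrophage, lymphocyte or duct epithelium marker was called. The part of these cell types in the CD81 and CD151 differences was not tested, and in whole testis fewer cells of a type and less RNA per cell cannot be told apart.

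**Figure D2:**
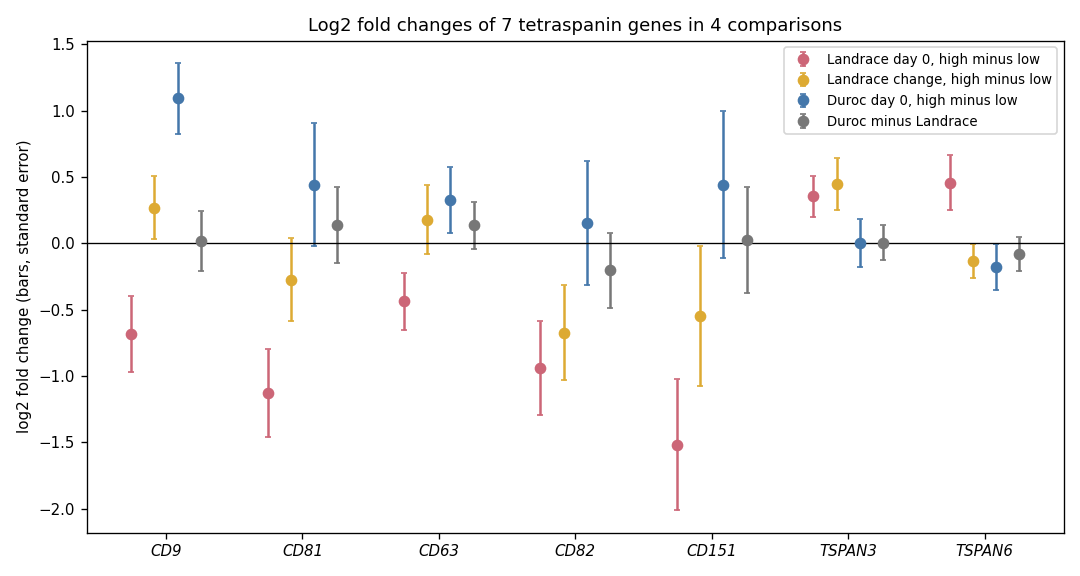
Log2 fold changes (vertical axis, bars are standard errors) of 7 tetraspanin genes in 4 comparisons, marked by colour. In Landrace at day 0, 5 genes lie below 0 and TSPAN3 and TSPAN6 above it. In Duroc, CD9 lies at 1.09, and between breeds all 7 genes lie between -0.20 and 0.14.

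The wider family was described through lists of genes with known roles. All 24 other tetraspanins listed were in the files, and 14 were tested in contrast (i). Of these, 3 were lower in the high group and none was higher, against 15.8% lower and 4.82% higher over all genes, so the count was near that background. Their median log2 fold change was -0.49, against 0.03 over all genes. CD37, a leukocyte tetraspanin, had 8.13 ± 3.16 CPM in the high and 17.4 ± 2.47 CPM in the low boars (log2 fold change -1.16, SE 0.27, adjusted p = 0.0217 in edgeR). The summed lymphocyte markers were at 4.87 to 5.48 CPM in the high and 4.38 to 5.71 CPM in the low boars. That sum joins markers of opposite sign, neither of them called. CD79A had means of 0.825 CPM in the high and 1.41 CPM in the low boars (log2 fold change -0.87). PTPRC had 3.73 and 3.02 CPM (0.23). The part of leukocytes in the CD37 difference was not tested. TSPAN17, of the group that binds the protease ADAM10, had 11.4 ± 2.48 and 19.2 ± 1.85 CPM (-0.82, SE 0.20, adjusted p = 0.0225). TSPAN9 had 1.59 ± 0.482 and 3.60 ± 1.10 CPM (-1.24, SE 0.32, adjusted p = 0.0266). TSPAN14, also of the ADAM10-binding group, was at -0.80 and did not pass (adjusted p = 0.0573 in edgeR).

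**Figure D3:**
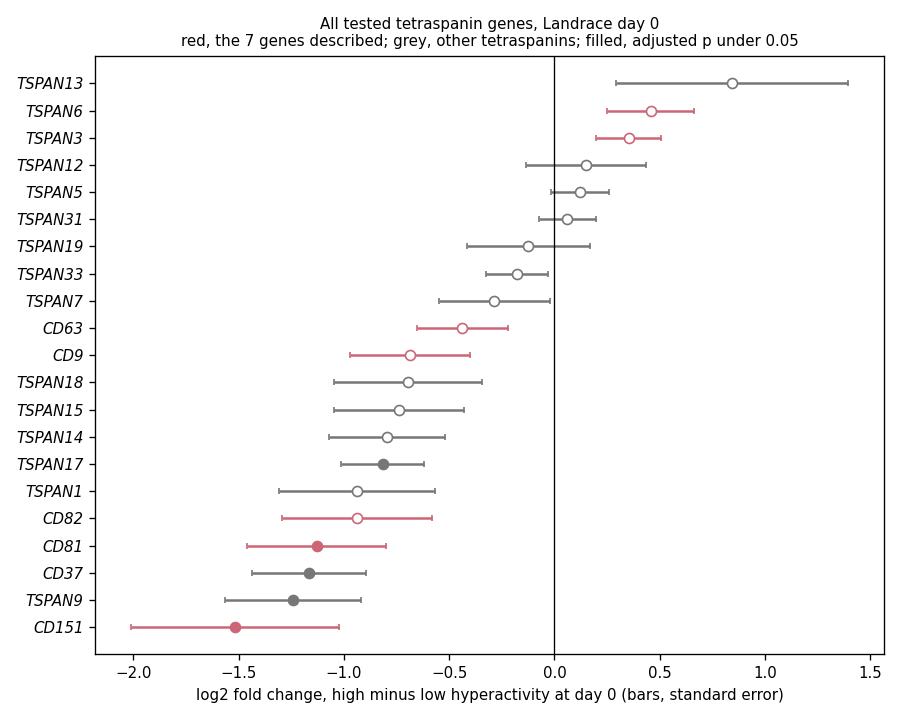
Log2 fold changes (horizontal axis, bars are standard errors) of all 21 tetraspanin genes tested in Landrace at day 0, high minus low hyperactivity, with the 7 described genes in red and the other 14 in grey. Filled points passed an adjusted p of 0.05, and all 5 of them lie below 0. CD151, among them, met the CPM filter through the low group.

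Of the proteins that tetraspanins hold at the membrane, 13 of 18 listed partners were tested in contrast (i). The laminin receptor subunits ITGA3 (-1.85, adjusted p = 0.0208 in edgeR) and ITGB4 (-1.98, adjusted p = 0.0361) and the immunoglobulin-type IGSF3 (-1.59, adjusted p = 0.0309) were lower in the high group, and none was higher. ITGA3 forms with CD151 one of the best-known tetraspanin complexes. These 3 genes reached 1 CPM in all 4 low boars and in no high boar, so they entered the test only through the low group and the direction of their difference was fixed by that filter. ADAM10, the membrane protease, was at 0.47 (adjusted p = 0.0587 in edgeR). The median over the partners was -0.02, and the 3 of 13 called stand against 20.7% over all genes.

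Of the 29 genes of vesicle formation and release, 21 were tested in contrast (i), with 2 higher, 3 lower and a median of 0.13. That count too was near the 20.7% called over all genes. The small GTPases RAB5A of early endosomes (0.45, adjusted p = 0.0405 in edgeR) and RAB11A of recycling endosomes (0.47, adjusted p = 0.0436) were higher in the high group. The lysosomal membrane protein LAMP1 (-0.67, adjusted p = 0.0214) and the cargo-sorting components VPS28 (-1.39, adjusted p = 0.0260) and HGS (-1.33, adjusted p = 0.0361) were lower.

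Contrast (iii) asked the same of boars whose hyperactivity changed much or little over storage. None of the 7 genes was called, and the test called 0% of all 12824 genes (19.8% had an unadjusted p under 0.05, 2540 genes). TSPAN3 had the smallest p of the 7. It was at 129, 202 and 120 CPM in the high-change boars L7, L13 and L15 and at 130, 99.4, 114 and 94.5 CPM in the low-change boars L2, L9, L10 and L12. L13 stood above all other boars, and the log2 fold change was 0.45 (SE 0.20, unadjusted p = 0.0472, adjusted p = 0.248 in edgeR), or 0.18 without L13. Of the 21 boars, L13 had the highest Sertoli cell (496 CPM) and lymphocyte (12.8 CPM) sums and the lowest elongating spermatid sum (4847 CPM). The part of these cells in the TSPAN3 difference was not tested.

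CD82 was at 2.45, 1.19 and 1.303 CPM in the high-change and 3.30, 2.08, 1.81 and 3.23 CPM in the low-change boars, with a log2 fold change of -0.67 (SE 0.36, adjusted p = 0.299 in edgeR). Leaving out 1 boar gave -1.08 (without L7) to -0.48 (without L13). CD151 split the low-change boars into L2 and L12 at 2.02 and 2.501 CPM and L9 and L10 at 0.619 and 0.622 CPM, while the high-change boars had 1.28, 0.673 and 1.04 CPM (log2 fold change -0.55, SE 0.53). The CD151 value was -0.80 without L9 and -0.15 without L12. CD81 and CD63 showed the same split of the low-change boars, CD81 at 6.11 and 6.07 against 3.07 and 3.11 CPM and CD63 at 57.1 and 53.9 against 31.9 and 28.7 CPM. Their high-change boars had 4.10, 3.95 and 3.47 CPM of CD81 and 50.7, 56.3 and 40.0 CPM of CD63.

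CD9 had 8.88, 11.7 and 10.5 CPM in the high-change boars and 11.9, 7.54, 7.09 and 7.48 CPM in the low-change boars, of which L2 lay above all 3 high-change boars and the other 3 lay below them. The log2 fold change was 0.27 (SE 0.24, adjusted p = 0.512 in edgeR). TSPAN6 was at 728, 648 and 712 CPM against 665, 723, 868 and 774 CPM (-0.13, SE 0.13). The groups overlapped for all 7 genes, against no overlap for 16.4% of all genes tested, and the exact permutation p ran from 0.143 to 0.657, where 35 assignments allow 0.0286 at best. In the lists, no gene was called, and the medians were -0.05 for the other tetraspanins, 0.27 for the partners and 0.15 for the vesicle genes.

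Contrast (ii), in Duroc, called 0% of 13043 genes, and 1.21% (158 genes) had an unadjusted p under 0.05. Under these labels CD9 had the smallest p of all genes tested. It was at 10.3, 11.99, 8.08, 9.07 and 12.3 CPM in the boars labelled high (D1 to D5) and at 4.995, 3.67 and 6.10 CPM in those labelled low (D6, D7 and D9). Every boar labelled high was above every boar labelled low. Grouped by the study's list under the same boar names, the boars would overlap, with D5 above D1 to D4 and D6, D7 and D9 below them. No test was run on that grouping, and the read depths do not go with those names. By the labels, the means were 10.3 ± 1.83 CPM (SD, n = 5) and 4.92 ± 1.22 CPM (n = 3), with a log2 fold change of 1.09 (SE 0.27, unadjusted p = 0.00167, adjusted p = 0.99998 in edgeR). The exact permutation p was 0.0179, the smallest of 56 assignments. Leaving out 1 boar gave log2 fold changes from 0.91 (without D7) to 1.34 (without D9). The elongating spermatid sums did not overlap either, at 8802 to 9985 CPM in the boars labelled high and 8291 to 8693 CPM in those labelled low. EPCAM, of the duct epithelium markers, was at -1.14, and no marker was called. The part of cell types in the CD9 difference was not tested.

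The other 6 genes overlapped between the Duroc groups, so that 1 of 7 did not overlap, against 1.3% of all genes tested. CD81 was at 7.36, 2.13, 3.14, 4.84 and 6.54 CPM in D1 to D5 and at 1.92, 4.24 and 4.63 CPM in the boars labelled low. Boars labelled high held both the highest level (D1) and the second lowest (D2), and the log2 fold change was 0.44 (SE 0.46). CD151 followed the same boars with 1.95, 0.445, 1.13, 1.4995 and 1.87 CPM against 0.449, 1.02 and 1.60 CPM (0.44, SE 0.56). CD63, at 52.7, 36.5, 52.2, 49.9 and 74.1 CPM against 33.1, 43.4 and 52.3 CPM, had D5 above all other boars of either breed (0.33, SE 0.25). Leaving out 1 boar gave 0.12 to 0.72 for CD81, 0.07 to 0.98 for CD151 and 0.15 to 0.55 for CD63. For each gene the lowest came without D6 and the highest without D9. The log2 fold changes were 0.15 (SE 0.46) for CD82, 0.00 (SE 0.18) for TSPAN3 and -0.18 (SE 0.17) for TSPAN6. Their CPM ran from 0.849 to 2.85 for CD82, from 97.4 to 158 for TSPAN3 and from 628 to 1008 for TSPAN6 over the 8 Duroc boars. No listed gene was called, and the medians of the lists were 0.08, 0.18 and 0.11 in the same order.

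The difference between the breeds in the day 0 effect was tested as an interaction over the 16 boars with such a label. CD9 had the smallest p of the 7 genes, with a Duroc effect 1.75 log2 units above the Landrace effect (SE 0.40, unadjusted p = 0.000396). That was the fourth smallest p of 12920 genes, but the adjusted p was 0.329 in edgeR, and 0% of all genes were called (15.1% with an unadjusted p under 0.05). DESeq2 gave CD9 an adjusted p of 0.0332 and called 6 genes. The differences were 1.95 (SE 0.80) for CD151, 1.55 (SE 0.61) for CD81, 1.08 (SE 0.61) for CD82 and 0.74 (SE 0.35) for CD63, and -0.39 (SE 0.23) for TSPAN3 and -0.67 (SE 0.27) for TSPAN6, with adjusted p from 0.329 to 0.374 in edgeR. Unadjusted p was under 0.05 for 5 of the 7 genes. These differences also rest on the Duroc labels.

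Between the breeds none of the 7 genes was called, against 2.77% of the 12835 genes tested (355 genes, with 12.2% at an unadjusted p under 0.05). CD9 was at 8.31 ± 3.20 CPM in 8 Duroc boars and 8.31 ± 2.39 CPM in 13 Landrace boars. CD81 was at 4.35 ± 1.94 and 4.02 ± 1.55 CPM, CD63 at 49.3 ± 12.6 and 45.4 ± 11.6 CPM, and CD82 at 1.75 ± 0.7102 and 2.03 ± 0.816 CPM. CD151 was at 1.25 ± 0.589 and 1.24 ± 0.748 CPM, TSPAN3 at 122.4 ± 23.1 and 123.3 ± 32.6 CPM, and TSPAN6 at 757.5 ± 131.9 and 810.9 ± 221.1 CPM. The log2 fold changes, Duroc over Landrace, ran from -0.20 for CD82 (SE 0.28) to 0.14 for CD81 (SE 0.29), within 1 standard error of 0 for all 7 genes, and adjusted p ran from 0.980 to 0.999 in edgeR. All 7 overlapped between breeds, as did all but 0.242% of the genes tested. None of the other tetraspanins, partners or vesicle genes was called, with medians of 0.08, 0.02 and -0.03. Breed cannot be told apart from anything else that differed between both sets of boars.

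Across the 21 boars the genes varied together in part. Log2 CPM, centred on the mean of each breed, correlated most between CD81 and CD151 (Pearson's r = 0.943, Spearman's rho = 0.912, n = 21), and r was 0.902 without L8 and D6, the boars farthest from the median of CD81. Within Landrace r was 0.954 (n = 13) and within Duroc 0.956 (n = 8). CD82 followed both, with r = 0.882 to CD151 (rho = 0.849, 0.816 without L8 and D2) and 0.859 to CD81 (rho = 0.855, 0.811 without L8 and D6). CD63 had r = 0.782 to CD151 (rho = 0.717, 0.724 without L8 and L10) and 0.741 to CD81 (rho = 0.671, 0.612 without L8 and D6). The boars share the scaling over all genes and the mix of cells in each piece of testis, so these values are descriptions.

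Over the 21 boars CD9 followed these 4 genes less closely, and least in Duroc. In Landrace alone its r to CD81 was above that of CD63 to CD81 (0.697). Its r to CD81 was 0.546 (rho = 0.510, 0.454 without L8 and D7), being 0.783 in Landrace and 0.261 in Duroc, where D2 had much CD9 (11.99 CPM) and little CD81 (2.13 CPM). TSPAN6 ran the other way to CD151 (r = -0.735, rho = -0.555, and -0.538 without L8 and D2) and to CD81 (r = -0.727, rho = -0.573, and -0.485 without L8 and D6). TSPAN6 and CD9 had r = -0.635 (rho = -0.555, and -0.457 without L8 and D7), being -0.817 in Landrace and -0.373 in Duroc. TSPAN3 had r = -0.658 to CD82 (rho = -0.636, -0.644 without L8 and D2) and 0.272 to TSPAN6 (rho = 0.262, 0.338 without L13 and L3).

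**Figure D4:**
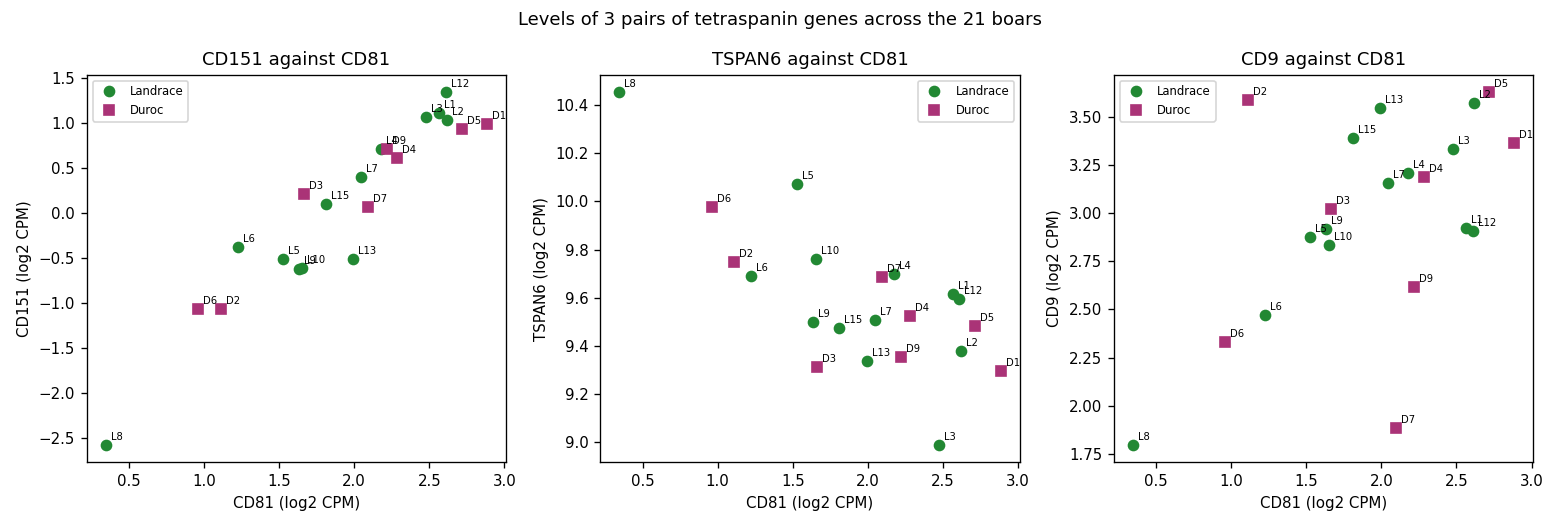
Log2 CPM of CD151, TSPAN6 and CD9 (vertical axes) against that of CD81 (horizontal axes) in 21 boars, with Landrace as circles and Duroc as squares, before centring by breed. CD151 rises with CD81 in both breeds, TSPAN6 is highest where CD81 is lowest (L8), and D2 and D7 lie off the line of the other boars for CD9.

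The genes most alike in pattern were sought among 10816 named genes over the 21 boars, by Pearson's r of the breed-centred log2 CPM. For CD81 they were CLN6 (0.967), QSOX1 (0.954) and PXN (0.952), and for CD151 they were GRN (0.960), KCNQ1 (0.956) and FDXR (0.952). For CD82 they were SDHA (0.933), GAPDH (0.932) and MSRB1 (0.928). For CD63 they were CRYAB (0.912), CTSB (0.864) and EHD2 (0.862). TSPAN3 was closest to CDC16 (0.950) and PPT1 (0.940), and TSPAN6 to BORA (0.906), RAD17 (0.902) and NMRK1 (0.901). CD9 had the weakest nearest neighbours, TAX1BP3 (0.768), PPM1M (0.737) and EMP2 (0.735).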

How the data were processed

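Testis RNA of 21 boars was sequenced by the authors as stranded mRNA libraries. The authors trimmed reads with Trimmomatic 0.36, mapped them by STAR to Sscrofa 11.1 and assigned them to Ensembl genes by HTSeq, with strand. What the authors deposited for each boar is the raw count of every gene. Rows that name no gene (29.4 to 39.0% of all counts in a library) were left out.

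Members, lists and alternatives were chosen with earlier results of these data known. Gene IDs were named from a table that named 14857 of 25880, with coordinates from RefSeq. All 7 matched genes, at most the 4 genes of smallest p in each wider list with any it turned on, and the 3 genes most alike to each member were named. One gene that this rule names is not reported here.

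Counts were tested in R 4.3.3 with edgeR 4.0.16 (quasi-likelihood, TMM, genes reaching 1 CPM in 4 or more libraries of a contrast, 8 for the interaction and 11 for breed, Benjamini-Hochberg at 0.05). The steps were tested on simulated data. Single levels were compared by two-sided exact permutation of log2 CPM (prior count 2), over all assignments of the boars. Alternatives were a likelihood ratio test, DESeq2 1.42.0, other scaling, no CPM filter, other sets of boars and leaving out each boar. Over 34 same-group pairs, log counts correlated at 0.949 to 0.985 and chi-square per degree of freedom was 38.9 to 248, above sampling noise. Nothing states that group members came from separate litters or days, so p-values measure the spread between these boars. Depth was 41358671 to 125576407 counts per library. The lowest level, 11 reads of CD151, carries the largest counting error, although it came from L8, a library of 97059970 counts. No sequences were used here.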

Additional observations from a re-analysis of the deposited data

Results flagged for a closer look

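CD9 in boar L2 stood apart from the other 3 low-change Landrace boars, with 11.9 CPM against 7.09 to 7.54 CPM. Its gap to the nearest boar was larger than expected for 4 boars from 1 distribution. Of 28 sets looked at, each being 1 gene in 1 group of boars, this was the only one, where chance gives 1.4. The log2 fold change of CD9 in the change over storage was 0.27 with L2 and 0.49 without it, and it was not called in either.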

How the results depend on the processing

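For the Landrace day 0 contrast, 2 of the 7 genes were also called by the likelihood ratio test, DESeq2 and relative log expression factors, and 1 with library totals only or with no CPM filter (CD151 adjusted p = 0.0522 and 0.0516). With all 16 day 0 boars in 1 fit, 0 of them and 1 gene in all were called (CD81 adjusted p = 0.0801, CD151 0.0775), and the cause was not tested. Leaving out 1 boar gave 0 to 4 of them and 1 to 3764 genes. Of all genes called, 76.7% were lower, against 62.8% in DESeq2 and 95.9% with library totals, which moved the median of all genes from 0.03 to -0.12. In the change over storage, 64 genes were called by the likelihood ratio test, 116 by DESeq2, 1 without the CPM filter and 0 to 2 leaving out 1 boar, none of them among the 7. In Duroc no setting called any of the 7 (0 to 2 genes leaving out 1 boar, 0 by DESeq2 and the likelihood ratio test). Between breeds, 537 genes were called by DESeq2, 585 without the CPM filter, 204 with Landrace day 0 boars only and 258 to 473 leaving out 1 boar. For the interaction, the likelihood ratio test called 3 genes, DESeq2 6, of which 1 was CD9, and leaving out 1 boar 0 to 1.

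Signs turned only for differences near 0. TSPAN3 in Duroc became -0.0292 with DESeq2 and with relative log expression factors, -0.0308 with library totals, -0.0040 without the CPM filter and -0.0368 in the 16-boar fit, and ran from -0.101 to 0.0592 leaving out 1 boar. Between breeds TSPAN3 became -0.0012 with DESeq2 and relative log expression factors, -0.0044 with library totals and -0.0124 without the CPM filter (-0.0495 to 0.0872 leaving out 1 boar). CD9 became -0.0027 with library totals and -0.00077 without the CPM filter (-0.0867 to 0.133), and CD151 -0.0756 with Landrace day 0 boars only (-0.104 to 0.154). Leaving out 1 boar gave -0.0253 to 0.253 for CD81 and -0.137 to 0.00774 for TSPAN6 between breeds, and -0.0817 to 0.622 for CD82 in Duroc. The correction for GC content was not run, as no sequence was used here. No paired analysis was possible because the replicate numbers were given in accession order and pair no boars. Low counts limit CD151 and CD82 most.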
